A study of Mus musculus with 16 samples.

Results

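The Hox gene clusters were described mark by mark in a mouse myeloid progenitor line that expressed human ERG or a variant of it. The set holds 38 Hox genes of the 4 clusters, 10 of Hoxa, 10 of Hoxb, 9 of Hoxc and 9 of Hoxd, out of 17885 genes that the region tables name. Its members were the deposited regions whose gene annotation named one of these 38 genes. They numbered 318 of 348079 regions over 5 histone marks, and 151 of them lay inside the clusters, between the outermost ends of the first and last member genes. The other 167 lay in the flanks, mostly in the gene deserts that the annotation assigns to the outermost Hox genes. By mark they were 42 of 114597 regions for H3K27ac, 27 of 60720 for H3K9ac, 31 of 43128 for H3K4me3, 94 of 114913 for H3K4me1 and 124 of 14721 for H3K27me3. At least 1 region named 37 of the 38 genes, and Hoxd8 was named by none. Genes named by at least 1 region numbered 14 for H3K27ac, 14 for H3K9ac, 19 for H3K4me3, 31 for H3K4me1 and 34 for H3K27me3.

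ChIP-seq, the sequencing of DNA bound to immunoprecipitated histones, covered 3 lines made from C57BL/6 ER-Hoxb8 cells. ER-Hoxb8 cells are granulocyte-monocyte progenitors that an estrogen-regulated Hoxb8 transgene keeps immature, and all 3 lines carry that transgene. The lines were transduced with a lentiviral empty vector (empty), with human wild-type ERG (WT-ERG) or with P199L-ERG, the variant for which the study measured less contact with the NCoR-HDAC3 co-repressor. ERG belongs to the ETS transcription factors and acts in blood stem cells. Each mark and line had 1 library, 15 in all. Differences between lines therefore have no replicate check and no p-value, and every interval below covers counting error only. Values of the 3 lines are given in the order empty, WT-ERG and P199L-ERG.

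Hox genes encode homeodomain transcription factors that pattern the body axis, and each cluster lists its genes in the order in which they act from head to tail. In cells that do not use them, Polycomb complexes hold the clusters in chromatin marked by H3K27me3, a mark of repression. Blood stem and progenitor cells use several genes of Hoxa and Hoxb, and leukaemias often keep Hoxa9 and its neighbours active. H3K4me3 marks active or poised promoters, H3K27ac and H3K9ac mark active promoters and enhancers, and H3K4me1 marks enhancers and the flanks of promoters.

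In mm10 the clusters span 98.5 kb for Hoxa (chr6:52162417-52260880), 173.9 kb for Hoxb (chr11:96194316-96368256), 115.8 kb for Hoxc (chr15:102921103-103036852) and 96.8 kb for Hoxd (chr2:74668310-74765142). Reads inside the regions ranged from 13980539 to 16230439 per library for H3K27ac, 10268618 to 10992315 for H3K9ac, 19834069 to 22278560 for H3K4me3 and 14508786 to 17144801 for H3K4me1. H3K27me3 was far shallower, with 971058, 980145 and 768125 reads, and the authors called 7237, 11508 and 4080 of its 14721 regions in the 3 lines. The label of the cells was set against marker genes. All 10 granulocyte-monocyte progenitor markers examined, Mpo, Elane and Cebpa among them, carried H3K27ac, H3K9ac, H3K4me3 and H3K4me1 at their start sites and none carried H3K27me3, in each line. H3K4me3 also lay at 3 of 3 erythroid markers in each line and at 3, 4 and 4 of 5 megakaryocyte markers. It lay at 2 of 5 B cell markers and 1 of 4 endothelial markers in each line, and at 0 of 5 T cell markers. The listed erythroid genes Hba-a1 and Ahsp and the endothelial gene Cdh5 had no start site in the tables and could not be assessed.

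Sequences are shown where the results turn on them. The first are the ends of the coding exons of Hoxb8, the gene that the line also carries as a transgene, since 3 marks had regions shaped like these exons. Coding exon 1 runs over chr11:96282963-96283386 and coding exon 2 over chr11:96284163-96284467, on the plus strand of mm10. In the 60-base windows below, capitals mark coding bases without the stop codon.
Hoxb8 start of coding exon 1, chr11:96282933-96282992: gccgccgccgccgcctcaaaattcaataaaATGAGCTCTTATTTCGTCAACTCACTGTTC
Hoxb8 end of coding exon 1, chr11:96283357-96283416: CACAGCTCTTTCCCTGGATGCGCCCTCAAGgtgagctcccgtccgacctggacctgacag
Hoxb8 start of coding exon 2, chr11:96284133-96284192: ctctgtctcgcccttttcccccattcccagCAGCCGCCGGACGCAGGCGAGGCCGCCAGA
Hoxb8 end of coding exon 2, chr11:96284438-96284497: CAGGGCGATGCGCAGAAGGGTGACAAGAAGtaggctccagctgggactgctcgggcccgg

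The second are the 250 bases before the start sites of 3 genes in different states, from RefSeq (GRCm38.p6), with each CG in capitals. Hoxb4 carried the strongest active marks at a Hox start site, the Hoxb8 promoter lay in H3K27me3 with no acetylation region over it, and the Hoxa9 promoter lay within a long H3K27me3 region.
Hoxb4 promoter, chr11:96318017-96318266, plus strand: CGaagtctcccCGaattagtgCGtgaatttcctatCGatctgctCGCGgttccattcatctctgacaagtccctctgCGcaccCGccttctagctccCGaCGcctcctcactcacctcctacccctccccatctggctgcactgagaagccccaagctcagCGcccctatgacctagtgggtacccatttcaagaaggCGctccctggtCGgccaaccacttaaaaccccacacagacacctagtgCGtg
Hoxb8 promoter, chr11:96281655-96281904, plus strand: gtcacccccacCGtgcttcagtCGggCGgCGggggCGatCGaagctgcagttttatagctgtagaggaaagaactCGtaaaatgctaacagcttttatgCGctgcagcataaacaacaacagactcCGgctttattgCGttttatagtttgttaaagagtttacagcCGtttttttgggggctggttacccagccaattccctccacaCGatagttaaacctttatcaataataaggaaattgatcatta
Hoxa9 promoter, chr6:52227371-52227620, minus strand: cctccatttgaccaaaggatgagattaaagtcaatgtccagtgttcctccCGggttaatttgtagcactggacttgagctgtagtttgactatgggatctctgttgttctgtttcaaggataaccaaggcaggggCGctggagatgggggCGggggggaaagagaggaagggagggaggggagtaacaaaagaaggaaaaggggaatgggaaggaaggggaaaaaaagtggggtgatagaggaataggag
These windows hold 14, 12 and 3 CpG sites. Over the 22 Hox genes with an entry the median was 12.5, from 2 at Hoxd11 to 35 at Hoxa13, and over all 32851 promoters of the table it was 6.

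The clusters were first described in the empty-vector line, by the marks within 2 kb of each start site. H3K27me3 was present at 31 of the 38 start sites, H3K4me3 at 4, H3K27ac at 4, H3K9ac at 4 and H3K4me1 at 13. Over all 17622 protein-coding genes with a start site in the tables H3K27me3 was instead the rarest mark, at 13.0%. H3K4me3 lay at 65.0%, H3K27ac at 62.4%, H3K9ac at 62.5% and H3K4me1 at 72.2%. Of the Hox start sites 27 carried H3K27me3 without H3K4me3, against 5.37% of all genes, 4 carried both, against 7.59%, and 7 carried neither, against 29.7%. No Hox start site carried H3K4me3 alone, the state of 57.4% of all genes. The 4 start sites with both marks were those of Hoxb13, Hoxb8, Hoxb4 and Hoxd12. They differed in kind. Hoxb13 was covered by both marks, the H3K4me3 region counted for Hoxb8 lay over its coding exons and not over its start, the one counted for Hoxd12 lay between Hoxd13 and Hoxd12, and at Hoxb4 the called H3K27me3 region reached into the window by only a few bases. The 7 start sites with neither mark were those of Hoxa4, Hoxa5, Hoxa6, Hoxb3, Hoxd11, Hoxd8 and Hoxd1.

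**Figure D1:**
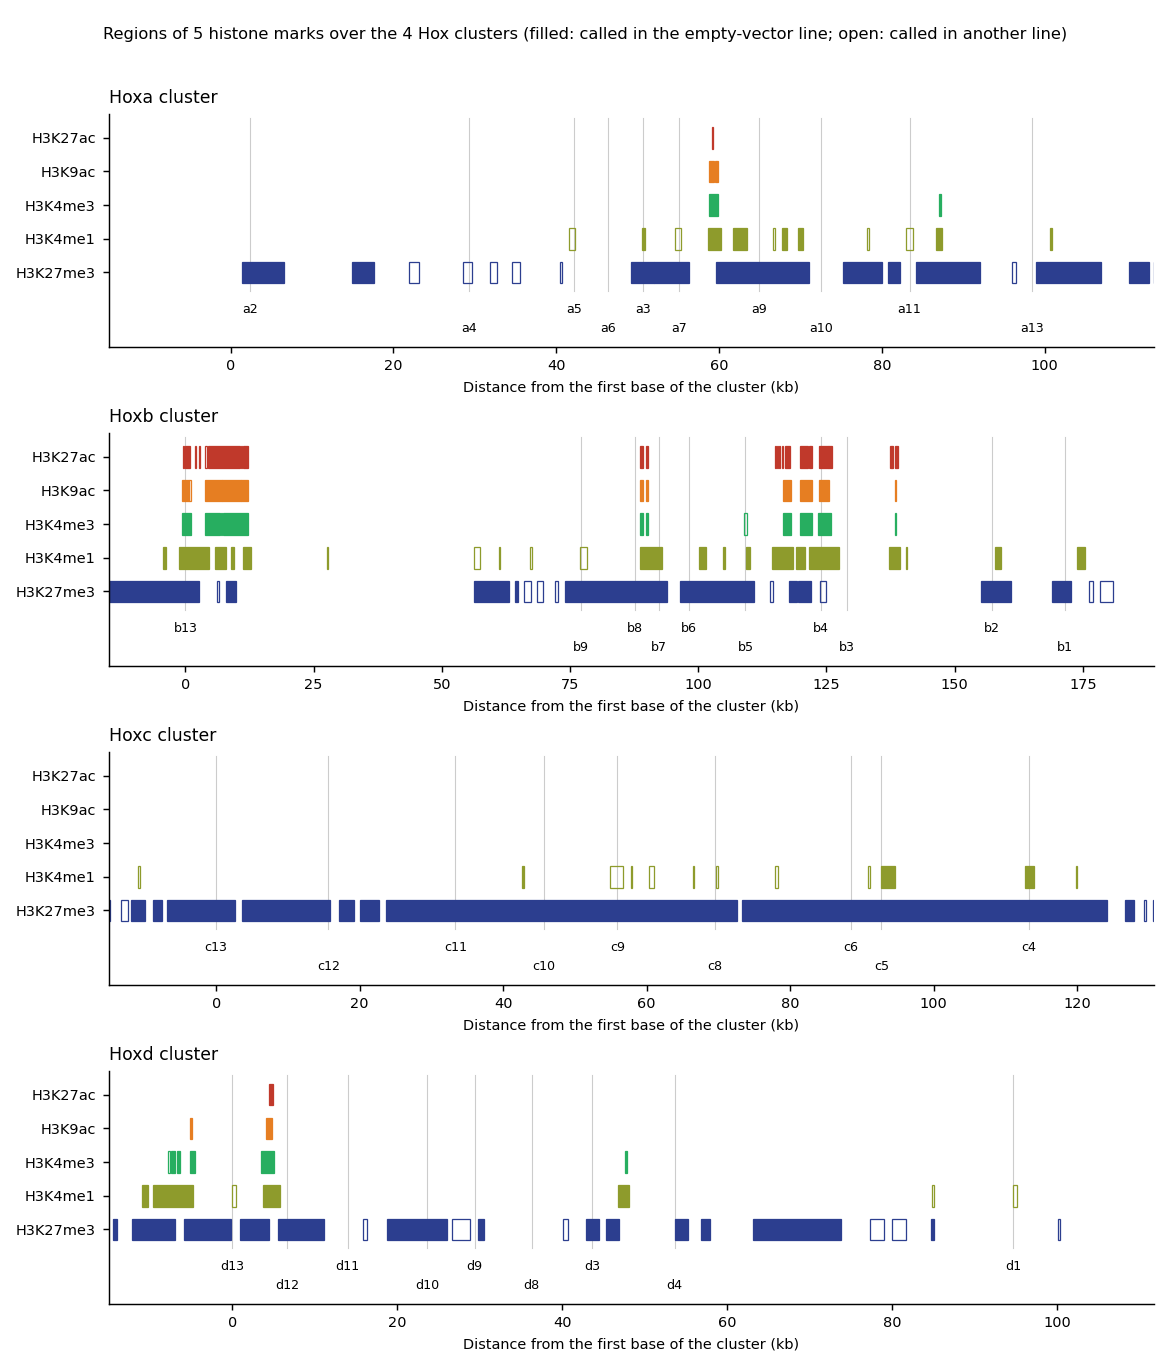
Map of the regions of 5 histone marks (rows) over the 4 clusters, with the distance in kb from the first base of each cluster on the horizontal axis. Grey lines mark start sites, labelled by cluster letter and number, filled boxes were called in the empty-vector line and open boxes only in another line, and boxes shorter than 0.15 kb are drawn at that width. H3K27me3 covers 95.9% of Hoxc, which has no region of H3K4me3, H3K9ac or H3K27ac, while Hoxb holds 23 of the 25 H3K27ac regions inside the clusters.

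H3K27me3 covered 50.6% of the bases of the 4 clusters in the empty-vector line, and Hoxc most of all. In Hoxc 6 regions, separated by 5 gaps of 712 to 1171 bases, covered 95.9% of the span and together reached over 131.0 kb (chr15:102914302-103045304). All 9 Hoxc start sites carried H3K27me3 in each line and none carried H3K4me3. The longest H3K27me3 region of the whole series, of 50.9 kb (chr15:102994369-103045304), spans Hoxc6, Hoxc5 and Hoxc4 and held 2691, 2717 and 2207 reads. The next, of 48.8 kb (chr15:102944824-102993656), spans Hoxc11, Hoxc10, Hoxc9 and Hoxc8 with 2852, 2823 and 2178 reads, and the third, of 28.2 kb (chr11:96168760-96196974), runs up to and over Hoxb13, a gene of the tail end of the axis, with 1476, 1359 and 1012 reads. Hox regions were thus 3 of the 10 longest and 8 of the 100 longest H3K27me3 regions. Their median length was 1320 bases against 884 over all regions, and they held 2.16% of the reads in 1.96% of the region bases. They were long, and their share of the reads was only slightly above their share of the bases. The 6 Hoxc regions all lay above the median of reads per kb in the empty-vector line, between the 52.6th and the 87.1st percentile.

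The other clusters were covered in blocks. H3K27me3 covered 41.2% of Hoxa, 34.4% of Hoxb and 35.0% of Hoxd in the empty-vector line. In Hoxa the largest block (chr6:52222040-52233464) lay over Hoxa9, whose product drives self-renewal of blood progenitors, and held 664, 635 and 529 reads. Another block (chr6:52246649-52254468) lay upstream of Hoxa11, which like Hoxa10 patterns limbs and the reproductive tract, and held 359, 329 and 277 reads. The region at the Hoxa13 start held 403, 411 and 353 reads. Between Hoxa4 and Hoxa6, called H3K27me3 was absent from the empty-vector and P199L-ERG lines around the start sites, and short regions there were called in another line only. In Hoxb a block of 19.8 kb (chr11:96268361-96288194) covered Hoxb9, Hoxb8 and Hoxb7 with 1232, 1192 and 882 reads, at the 90.0th percentile of reads per kb, and a second (chr11:96290806-96305231) covered Hoxb6 and Hoxb5 with 792, 769 and 596 reads. In Hoxd the blocks lay over Hoxd12 (chr2:74673819-74679403, 343, 312 and 238 reads), over Hoxd10 (chr2:74687063-74694311, 411, 369 and 325 reads) and between Hoxd4 and Hoxd1 (chr2:74731419-74742101, 530, 469 and 403 reads). Hoxd genes act in digits and the genital bud, tissues outside the blood.

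The first comparison between lines asks whether ERG or its variant moved this repressive end of the clusters. It moved little. Summed over the cluster, the log2 ratio of H3K27me3 normalized reads in WT-ERG against empty was -0.05 (interval -0.14 to 0.04) for Hoxa, -0.10 (-0.16 to -0.04) for Hoxb, -0.07 (-0.12 to -0.02) for Hoxc and -0.15 (-0.24 to -0.06) for Hoxd. In P199L-ERG against empty the ratios were 0.02 (-0.08 to 0.11), -0.11 (-0.17 to -0.04), -0.01 (-0.07 to 0.04) and -0.07 (-0.17 to 0.03). Every one of the 8 ratios was smaller than a 1.5-fold change. By region, 6 of 124 Hox regions were 1.5-fold higher and 11 lower in WT-ERG, that is 4.84% and 8.87%, against 12.6% and 13% of all H3K27me3 regions. In P199L-ERG 6 were higher and 8 lower, that is 4.84% and 6.45%, against 9.62% and 10.8% of all regions. Hox regions had a median length of 1320 bases against 884 over all regions, and the part of length in these shares was not tested. Inside the clusters 1 was higher and 2 were lower in WT-ERG, and 2 were higher and 1 was lower in P199L-ERG, of 51. A further H3K27me3 region touching a cluster named no member and was left out.

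Calls moved more than signal. H3K27me3 calls covered 41.2%, 45.8% and 37.3% of Hoxa, 34.4%, 36.3% and 29.7% of Hoxb and 35.0%, 40.6% and 24.3% of Hoxd, and 95.9% of Hoxc in every line. They reached 31, 34 and 26 of the 38 start sites, against 13.0%, 15.1% and 10.0% of all genes, in step with the number of regions called in each library. Hoxa4, Hoxa5 and Hoxd11 had a call at the start site in WT-ERG only, and Hoxb1, Hoxb4, Hoxd9, Hoxd3 and Hoxd4 lost theirs in P199L-ERG. The reads behind these calls were few. The region called over the Hoxa4 start (chr6:52190997-52192090) held 21, 26 and 16 reads, and the one over Hoxb1 (chr11:96363304-96367000), a gene of the embryonic hindbrain, held 126, 141 and 110 reads, a log2 ratio of 0.13 in P199L-ERG in spite of the lost call. The empty-vector and WT-ERG libraries had close depths and differed in the number of calls, while P199L-ERG had both the fewest reads and the fewest calls. The part of depth in the calls was not tested.

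**Figure D2:**
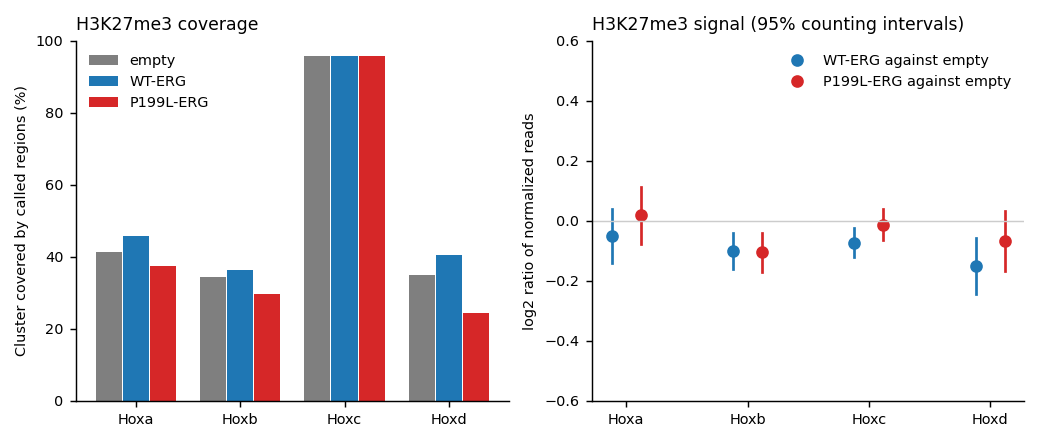
H3K27me3 over the 4 clusters: the percentage of each cluster covered by called regions in each line (left) and the log2 ratio of summed normalized reads against the empty-vector line with 95% counting intervals (right), 1 library per bar or point. Coverage differs between lines in Hoxa, Hoxb and Hoxd and not in Hoxc, where it is 95.9% in all 3, while all ratios lie between -0.15 and 0.02.

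The active end of the clusters was in Hoxb. Of the 25 H3K27ac, 14 H3K9ac and 15 H3K4me3 regions inside the clusters, Hoxb held 23, 11 and 11. In Hoxb H3K27ac held 4616, 4853 and 3462 reads, H3K9ac 3671, 3507 and 3141 and H3K4me3 6219, 6457 and 5697. In Hoxa the same marks held 17, 22 and 12, then 101, 92 and 88, then 367, 359 and 274 reads, in Hoxd 42, 44 and 26, then 115, 129 and 98, then 476, 551 and 447, and in Hoxc there was no region. The Hoxb regions lay at the start of Hoxb13, in a stretch 3′ of Hoxb13, in the neighbourhood of Hoxb4, at a site in Hoxb3, over the coding exons of Hoxb8, and at the start of Hoxb5, where a weak H3K4me3 region (chr11:96303275-96303744) held 29, 33 and 50 reads.

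Hoxb13 stood where long H3K27me3 and active marks met. At its start site H3K4me3 (chr11:96193548-96195362) held 515, 511 and 440 reads and H3K27ac (chr11:96194228-96195185) held 121, 163 and 88, within the 28.2 kb H3K27me3 region. The stretch 3′ of Hoxb13 carried far more. H3K27ac over chr11:96198800-96205019 held 1475, 1649 and 1578 reads, the largest H3K27ac region of the clusters, and H3K4me3 over chr11:96201589-96206583 and chr11:96198119-96201095 held 1396, 1371 and 1413, and 730, 681 and 778 reads. In that H3K27ac region the ratios against empty were small, 0.00 in WT-ERG and -0.17 in P199L-ERG. Those of the longer H3K4me3 region were -0.08 and -0.12. A further H3K27ac region of the stretch (chr11:96205515-96206584) held 144, 106 and 171 reads. Its ratio in WT-ERG was -0.59 (interval -0.98 to -0.23), or -0.33 once centred among regions of like GC content and signal. No called H3K27me3 region covered this stretch as a whole, and the largest within it (chr11:96202183-96204140) held 77, 59 and 60 reads.

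Hoxb4, whose product expands blood stem cells, had the strongest active marks at a Hox start site. H3K4me3 (chr11:96317686-96320227) held 1299, 1388 and 1063 reads, H3K9ac (chr11:96317952-96319872) 623, 600 and 498, and H3K27ac (chr11:96317904-96319548) 741, 820 and 430. WT-ERG and empty were close, with log2 ratios of 0.04, -0.21 and -0.01. P199L-ERG was lower in all 3 marks, with ratios of -0.42, -0.42 and -1.04 (interval for H3K27ac -1.22 to -0.88). Upstream, H3K27ac over chr11:96314112-96315621 held 312, 343 and 189 reads, a ratio of -0.98 in P199L-ERG, with H3K4me3 over chr11:96314225-96316486 at 586, 638 and 574 reads. H3K27me3 over the Hoxb4 start (chr11:96318016-96319215) was called in WT-ERG only, with 45, 44 and 40 reads, so the lines did not differ there beyond counting error.

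The Hoxa and Hoxd clusters had few regions of the 3 active marks. In Hoxa the one with the most reads lay over the 5′ end of the GENCODE Hoxa7 gene (chr6:52214491-52221854, minus strand), at the edge of the H3K27me3 block of Hoxa9. That end is upstream of the start site used here for Hoxa7 (chr6:52217504), so the region was not counted at a start site. It held 344, 341 and 273 reads of H3K4me3 (chr6:52221169-52222258). H3K9ac there held 62, 55 and 62 (chr6:52221202-52221777) and H3K27ac 17, 22 and 12 (chr6:52221490-52221714). The start site of Hoxa9 itself had no region of these 3 marks in any line. A further H3K4me3 region at Hoxa11 (chr6:52249386-52249626) held 23, 18 and 1 reads. In Hoxd the region with the most reads lay between Hoxd13 and Hoxd12, with 448, 520 and 427 reads of H3K4me3 (chr2:74671841-74673424). H3K9ac there held 115, 129 and 98 (chr2:74672364-74673193) and H3K27ac 42, 44 and 26 (chr2:74672722-74673210). The lines were close in H3K4me3 there, with log2 ratios against empty of 0.16 and -0.20. A second Hoxd H3K4me3 region, named for Hoxd3 and Hoxd4 among others (chr2:74715947-74716213), held 28, 31 and 20 reads. The highest sums of H3K4me3 and H3K27ac by named gene, 5063 and 2669 normalized reads at Hoxd13, came from the flanks instead. They were mostly the regions at the start sites of the neighbours Lnpk (chr2:74575080-74579811, 2576, 2558 and 2430 reads of H3K4me3) and Mtx2 (chr2:74825377-74827063, 1583, 1728 and 1209), which the annotation assigns to Hoxd genes as well.

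The comparison of P199L-ERG with the other lines in the acetylation marks asks whether the variant changed acetylation at the clusters. In Hoxb the summed H3K27ac log2 ratio was -0.09 (interval -0.15 to -0.03) in WT-ERG and -0.68 (-0.74 to -0.61) in P199L-ERG against empty. H3K9ac had ratios of -0.23 (-0.29 to -0.16) and -0.33 (-0.40 to -0.26), and H3K4me3 of 0.00 (-0.05 to 0.05) and -0.26 (-0.31 to -0.21). By region, 12 of the 42 Hox H3K27ac regions were 1.5-fold higher and 22 were lower in P199L-ERG, that is 28.6% and 52.4%, against 31.8% and 29.6% of all H3K27ac regions. Inside the clusters 1 of 25 was higher and 17 were lower. In WT-ERG 5 were higher and 6 lower, that is 11.9% and 14.3%, against 17.7% and 16.6% of all regions. With the 3 libraries scaled to their total reads in place of the deposited factors, the P199L-ERG counts became 14 and 14 and those of WT-ERG 5 and 4, and the median of all H3K27ac regions rose by 0.39 in P199L-ERG and by 0.10 in WT-ERG. Of all H3K27ac regions 43.3% were then higher and 17.1% lower in P199L-ERG. In WT-ERG 21.03% were higher and 13.0% lower. On that scale the Hoxb ratio in P199L-ERG was -0.25.

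Base composition moved with this difference. Over all H3K27ac regions the P199L-ERG ratio against empty had a median of 1.19 in the fifth with the lowest GC content and of -0.89 in the fifth with the highest. Median GC contents of these groups were 44.0% and 59.9%. The 42 Hox H3K27ac regions had a median GC content of 53.2%, against 51.7% over all H3K27ac regions. The large region 3′ of Hoxb13 had 49.3% and the Hoxb13 start 61.2%. Centred among regions of like GC content and signal, the H3K27ac ratio of P199L-ERG at the Hoxb4 start went from -1.04 to 0.22. H3K4me3 there went from -0.42 to 0.03, H3K9ac from -0.42 to -0.09, and H3K27ac at the Hoxb13 start from -0.71 to 0.39. The region upstream of Hoxb4, at 53.7% GC, kept a ratio of -0.72. Summed over Hoxb, the centred H3K27ac ratio was -0.09 in place of -0.68, and the median over the 42 Hox regions was -0.21 in place of -0.63. Whether base composition or P199L-ERG lies behind the lower H3K27ac cannot be told apart with 1 library per line.

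**Figure D3:**
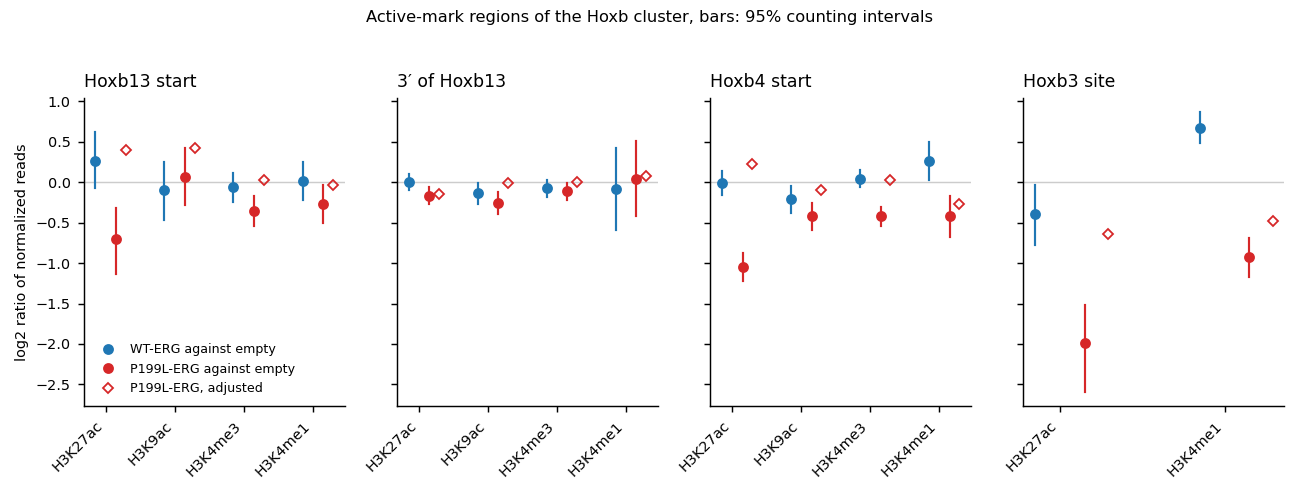
Log2 ratios of normalized reads against the empty-vector line at 4 places of the Hoxb cluster, for the region with the most reads of each active mark, 1 library per point, with 95% counting intervals as bars. Diamonds give the P199L-ERG ratio centred among regions of like GC content and signal, and regions with under 50 reads are left out. At the Hoxb4 start the H3K27ac point of P199L-ERG lies at -1.04 and its diamond at 0.22, while at the Hoxb3 site the H3K4me1 points lie at 0.67 in WT-ERG and -0.92 in P199L-ERG.

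Over Hoxb8 the 3 active marks had regions with the outline of the coding exons. The H3K27ac, H3K9ac and H3K4me3 regions began 74 to 100 bases before and ended 82 to 101 bases after the 2 coding exons, whose ends are printed above. They covered 24.0%, 22.0% and 25.9% of the 776-base intron between them (chr11:96283387-96284162), all of it next to the exons, and none of the promoter. H3K4me1 and H3K27me3 had no such outline and their regions covered 100% of the intron. The region over coding exon 1 held 1057, 1031 and 449 reads of H3K27ac, 611, 475 and 415 of H3K9ac and 820, 1009 and 557 of H3K4me3. The region over coding exon 2 held 291, 304 and 248, then 260, 251 and 299, then 391, 396 and 443 reads. In reads per kb the exon 1 region of H3K27ac lay at the 99.98th percentile of all H3K27ac regions in the empty-vector line. Among the coding exons of over 200 bases of all Hox genes, no other gene had such a region in these 3 marks.

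The annotation names these regions as Hoxb7, but they lie within the Hoxb8 transcript (chr11:96281905-96285315). The line carries Hoxb8 as an estrogen-regulated transgene, and reads from the transgene and from the coding exons of the endogenous gene cannot be told apart in these tables. The values of Hoxb8 are therefore not levels of the endogenous locus. The regions made up 29.2%, 27.5% and 20.1% of the Hoxb reads of H3K27ac, 23.7%, 20.7% and 22.7% of those of H3K9ac and 19.5%, 21.8% and 17.6% of those of H3K4me3. Without them the Hoxb ratios of P199L-ERG against empty were -0.50 for H3K27ac, -0.31 for H3K9ac and -0.23 for H3K4me3.

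The balance between the exons differed between lines. Per kb of region, exon 1 exceeded exon 2 by 2.93, 2.74 and 1.46 times in H3K27ac, by 1.94, 1.56 and 1.15 times in H3K9ac and by 1.72, 2.09 and 1.03 times in H3K4me3. P199L-ERG had the smallest ratio in each of the 3 marks. The H3K27ac region over exon 1 has a GC content of 66.4% and that over exon 2 of 61.2%, and centred among regions of like GC content the H3K27ac ratio of P199L-ERG over exon 1 went from -1.49 to -0.04. Over exon 2 it went from -0.49 to 0.61, so that exon 1 remained the lower of the 2 after centring.

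**Figure D4:**
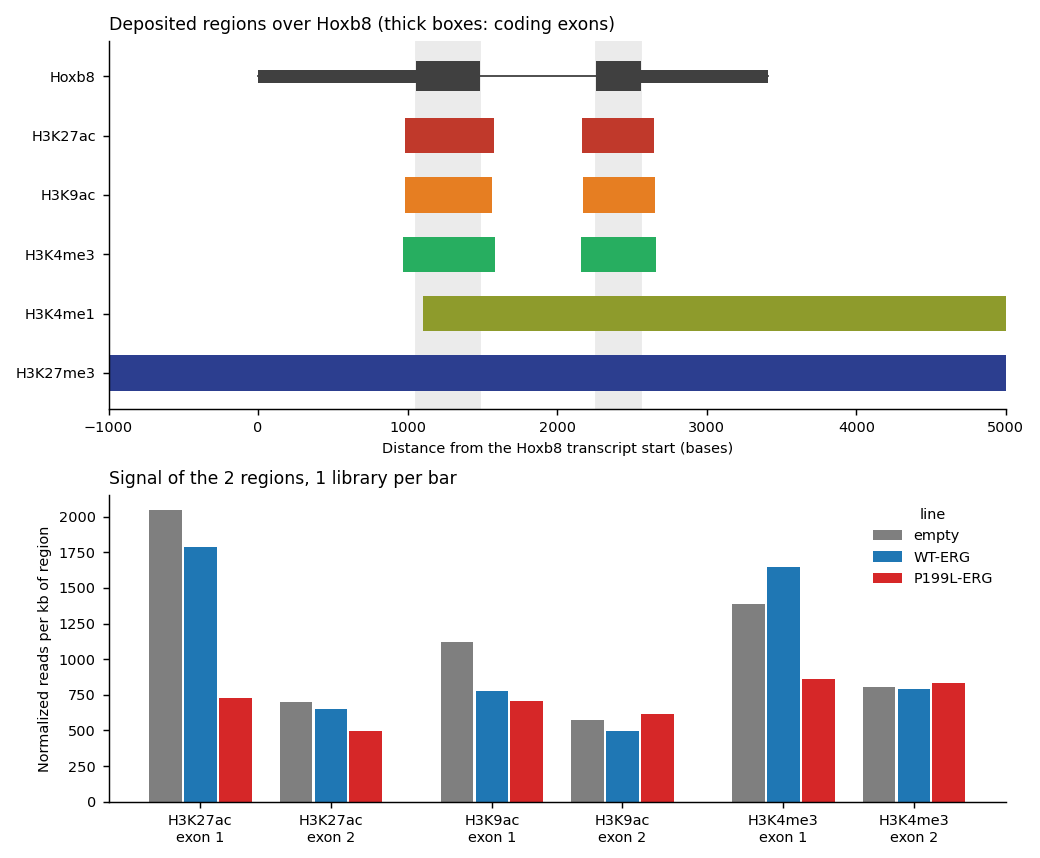
Regions of the 5 marks over the Hoxb8 transcript, with distance from its start in bases (top, thick boxes and grey bands are the coding exons), and normalized reads per kb of the regions over each coding exon (bottom, 1 library per bar). The H3K27ac, H3K9ac and H3K4me3 boxes end within 74 to 101 bases of the coding exons. In P199L-ERG the exon 1 bar of H3K27ac is 1.46 times the exon 2 bar, against 2.93 times in the empty-vector line.

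In H3K4me1 WT-ERG lay above and P199L-ERG below the empty-vector line at the clusters. Of 94 Hox H3K4me1 regions, 49 were 1.5-fold higher and 6 lower in WT-ERG than in empty, that is 52.1% and 6.38%, against 25.3% and 17.2% of all H3K4me1 regions. In P199L-ERG against empty 8 were higher and 28 lower, that is 8.51% and 29.8%, against 12.8% and 12.5%. In P199L-ERG against WT-ERG 6 were higher and 61 lower, that is 6.38% and 64.9%, against 14.5% and 23.4%. Inside the clusters, of 46 regions, 27 were higher and 2 lower in WT-ERG, 0 higher and 18 lower in P199L-ERG, and 0 higher and 37 lower between the ERG lines. Their median log2 ratios were 0.70, -0.45 and -1.10, beside 0.04, -0.02 and -0.02 over all regions.

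With the deposited scaling all 4 clusters had this order of the lines in their summed signal. Hoxa held 421, 495 and 241 reads, with log2 ratios of 0.44 (interval 0.25 to 0.63) in WT-ERG and -0.89 (-1.14 to -0.67) in P199L-ERG. Hoxb held 2437, 2707 and 1950 reads, with 0.36 (0.28 to 0.44) and -0.42 (-0.51 to -0.34). Hoxc held 208, 326 and 158 reads, with 0.84 (0.60 to 1.11) and -0.48 (-0.80 to -0.19), and Hoxd 214, 228 and 183 reads, with 0.29 (0.02 to 0.58) and -0.32 (-0.62 to -0.03). The order was not kept everywhere. Centred among regions of like GC content and signal, Hoxc had a ratio of 0.05 in P199L-ERG, and the Hoxd regions a median of 0.12 in the same line. With only the Hoxd regions called in both lines, the ratio of WT-ERG was 0.03 in place of 0.29. The WT-ERG library was the shallowest for this mark, so a ratio above 0 can go with few more reads. Start sites with an H3K4me1 call numbered 13, 21 and 9 of 38, against 72.2%, 75.7% and 71.8% of all genes. Those called in WT-ERG only were Hoxa5, Hoxa7, Hoxa11, Hoxb9, Hoxc9, Hoxc8, Hoxd13 and Hoxd1.

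These regions were weak, and which line called them bears on the counts. A region of the table exists because at least 1 line called it. Of the 46 inside the clusters WT-ERG alone called 19, or 41.3%, against 12.2% of all H3K4me1 regions, and P199L-ERG alone called 0, against 8.31%. Regions that only WT-ERG called had to be high there, so counts over them are a description. The 16 regions called in all 3 lines had median ratios of 0.27 in WT-ERG (range -0.86 to 0.88), -0.41 in P199L-ERG (-0.92 to 0.04) and -0.68 between the ERG lines (-1.61 to 0.29). Over the 64327 regions of the series called in all 3 lines these medians were 0.02, -0.03 and -0.01. The 46 regions had a median of 24.5 normalized reads in the empty-vector line, against 40.9 over all regions, and a GC content of 57.9% against 48.1%. Centred among regions of like GC content and signal, their medians were 0.51, -0.13 and -0.57.

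Most H3K4me1 regions inside the clusters lay in H3K27me3 chromatin. Of the 46 regions 37 overlapped an H3K27me3 region, with medians of 0.68, -0.48 and -1.09. The other 9 did not, with medians of 0.96, -0.43 and -1.34. Over the whole series 5433 of 114913 H3K4me1 regions overlapped one. The 9 Hox regions without H3K27me3 were the weaker ones. Their median in the empty-vector line was 10.98 normalized reads, against 33.93 for the 37. The 5378 H3K4me1 regions elsewhere in the genome that overlapped H3K27me3 had medians of 0.25, -0.37 and -0.57, or 0.14, -0.03 and -0.14 once centred for GC content and signal. As deposited, this order of the lines was also present in H3K27me3 chromatin outside the Hox clusters and in the 9 Hox regions without H3K27me3. Once centred, the 5378 other regions had P199L-ERG close to empty, at -0.03.

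The site in Hoxb3, a gene expressed in blood progenitors, was the Hox H3K4me1 region with the most reads in WT-ERG. Since WT-ERG reads set this rank, the high value of the site in WT-ERG is a description. The site lies within the GENCODE gene and overlaps exons of predicted RefSeq transcripts of Hoxb3. H3K4me1 (chr11:96331442-96333651) held 394, 545 and 221 reads there, at the 99.0th percentile of reads per kb in the empty-vector line. WT-ERG was highest and P199L-ERG lowest, with log2 ratios against empty of 0.67 (interval 0.49 to 0.87) and -0.92 (-1.18 to -0.69), or 0.59 and -0.48 once centred. Ratios were smaller over the 3 H3K4me1 regions named for Hoxb4, which together held 859, 865 and 787 reads. Their summed ratios against empty were 0.22 in WT-ERG and -0.23 in P199L-ERG. H3K27ac over the middle of the Hoxb3 site (chr11:96332593-96333322) held 134, 113 and 39 reads. Its ratio in P199L-ERG was -1.98 (-2.60 to -1.52), or -0.64 once centred, at 67.5% GC. H3K9ac (chr11:96332708-96332896) held 15, 5 and 1 reads and H3K4me3 (chr11:96332754-96332915) 5, 14 and 3. The 189 bases of the H3K9ac region hold 19 CpG sites, and 3.98% of windows of that length centred on H3K9ac regions hold as many. The letters CCGGAA and AGGAAG, both forms of ETS motifs and searched on both strands, had 0 matches in those 189 bases. Of such windows 4.03% and 25.4% had a match, so most windows have none. The rest of the H3K4me1 region was not searched, and binding of ERG was not tested.

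Other H3K4me1 regions had the same order in the deposited signal, at genes that lay in H3K27me3 or beside it. At the start of Hoxb5 (chr11:96303639-96304463) H3K4me1 held 88, 143 and 55 reads, and a weak H3K4me3 region beside it (chr11:96303275-96303744) held 29, 33 and 50 reads and was called in both ERG lines but not in empty. Hoxc9 (chr15:102976046-102977768) held 35, 79 and 31, and Hoxc5 (chr15:103013756-103015668) 53, 86 and 35. The region over the 5′ end of the GENCODE Hoxa7 gene (chr6:52221097-52222621) held 161, 169 and 95. A region at the 3′ end of Hoxb1 (chr11:96368236-96369821) went the other way, with 178, 83 and 127 reads and a ratio of -0.86 (interval -1.29 to -0.51) in WT-ERG.

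**Figure D5:**
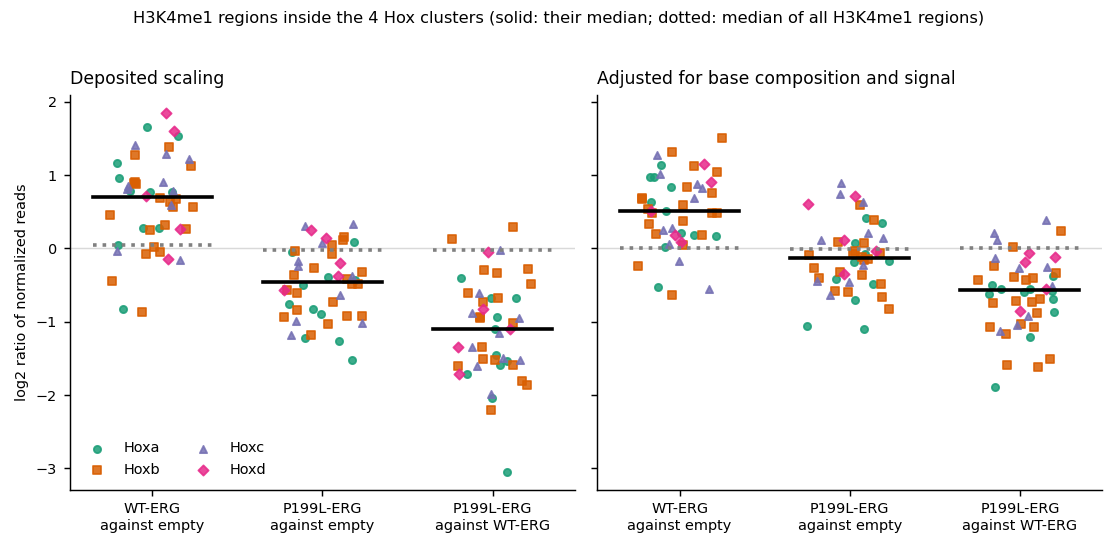
Log2 ratios of H3K4me1 normalized reads for the 46 regions inside the 4 clusters, 1 point per region and symbols by cluster, as deposited (left) and centred among regions of like GC content and signal (right). Solid lines are the medians of the 46 regions, at 0.70, -0.45 and -1.10 on the left and 0.51, -0.13 and -0.57 on the right, and dotted lines those of all H3K4me1 regions, which lie within 0.04 of 0.

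The flanks held regions whose order differed from that inside the clusters. Beyond Hoxb1, H3K4me1 over chr11:96441223-96442859 held 13, 59 and 82 reads and chr11:96453898-96457108 held 71, 139 and 144, so that both ERG lines lay above empty, while chr11:96459225-96459891 held 4, 47 and 7. Beside Hoxd13, chr2:74658725-74663540 held 286, 428 and 206 reads, as inside the clusters, and chr2:74608214-74610439 held 77, 165 and 115. In H3K27ac P199L-ERG was highest at chr15:103152094-103153432, beyond Hoxc4, with 38, 71 and 176 reads, and at chr2:74609734-74610405 with 47, 35 and 186. These 2 ratios against empty of 1.90 and 1.68 were 1.35 and 1.28 once centred for GC content and signal. A gain with few reads, at chr2:74576592-74577021 with 7, 8 and 53, went from 2.37 to 1.16. Some other gains were not kept. At chr2:74605362-74605820 the ratio went from 1.54 to 0.25, and at chr2:74606285-74606872 from 0.97 to -0.12. The 12 Hoxd flank regions of H3K27ac had a median of 1.25, or 0.05 once centred, and the 4 Hoxc ones of 1.41, or 1.22.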

How the data were processed

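ChIP-seq libraries of 5 marks in 3 lines (15 libraries) were analysed. The series lists 16 samples, and the pooled IgG control was not analysed here. Per the submitters' processing notes and the study's methods, reads were trimmed with cutadapt, aligned uniquely to mm10 with Bowtie, and peaks were called with MACS2, merged per mark over the lines and assigned to genes with GREAT. The deposited tables hold read counts made by the authors, the authors' normalized signal, which equals the count times 1 factor per library and is not divided by length, and calls of 0 or 1. The source of the factor and the treatment of duplicates are not given in the sources used here. Per region, log2 ratios of the deposited signal were taken after adding 10% of the median of the mark, and 1.5-fold was called changed. Intervals are exact 95% binomial (Clopper-Pearson) intervals of read counts and cover counting error only, since PCR reads are not independent molecules. GC content came from the mm10 sequence, and values were centred within 20 GC by 10 signal groups. A mark counted at a start site when a called region overlapped 2 kb on each side. Start sites came from the distances in the annotation, and for Hoxd8 from GENCODE M21, exons from GENCODE M21 and promoters from RefSeq. Every Hox gene could be named, with values for changes of state along a cluster, the strongest members, Hoxb8, Hoxa9 and regions past 1.5-fold with at least 50 reads over both lines. The Hox genes, lists and places were chosen with earlier results of these data known. Scripts used Python 3.11.15, numpy 2.4.6, pandas 2.3.3, scipy 1.17.1 and matplotlib 3.10.9 and were tested on simulated data. Alternatives were total-read scaling, another pseudocount, a filter on low signal, centring for GC content, regions called in both lines, and other windows.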

Additional observations from a re-analysis of the deposited data

How the results depend on the processing

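Of 331 recomputed values, 96 moved beyond their counting interval or by over 1.5 times and 235 did not. The cause was not tested unless the setting itself removes regions. No paired analysis was possible because each line has 1 library per mark. With total-read scaling, the ratios against empty became -0.035 (Hoxb) and -0.0079 (Hoxc) for H3K27me3 in WT-ERG, -0.33 for Hoxb H3K4me1 in P199L-ERG, 0.024 (WT-ERG) and -0.25 (P199L-ERG) for Hoxb H3K27ac, -0.060 and -0.13 for Hoxb H3K9ac, and 0.0037 for Hoxb H3K4me3 in P199L-ERG, and 14 H3K27ac regions were lower in P199L-ERG. Centring for GC content gave H3K27me3 ratios in WT-ERG of -0.0089 (Hoxb), 0.039 (Hoxc) and -0.050 (Hoxd). For H3K4me1 it gave 0.44 for Hoxb in WT-ERG, -0.44 (Hoxa), -0.17 (Hoxb) and 0.052 (Hoxc) in P199L-ERG against empty, and -0.72, -0.61 and -0.58 against WT-ERG. For Hoxb it gave 0.021 and -0.088 in H3K27ac, -0.020 and -0.065 in H3K9ac, and 0.042 for P199L-ERG in H3K4me3. Its counts were 3 lower H3K27ac regions in WT-ERG and 11 in P199L-ERG, 3 higher H3K27me3 regions in WT-ERG, and 12 (against empty) and 37 (against WT-ERG) lower H3K4me1 regions in P199L-ERG. The shares of all regions past 1.5-fold after centring were not computed, so these counts cannot be set against them. Without the regions inside the Hoxb8 transcript, chosen after seeing the data, Hoxb H3K27ac in P199L-ERG was -0.50.

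Counts fell under settings that damp or remove weak regions. The shares of all regions past 1.5-fold were not computed under these settings, so the counts do not compare Hox regions with others. With a pseudocount of 50% of the median, 3 and 2 H3K27ac regions were higher and lower in WT-ERG, 1 and 4 H3K27me3 regions in WT-ERG, then 3 and 3 for P199L-ERG, and 28 and 2 H3K4me1 regions in WT-ERG, 4 and 9 in P199L-ERG against empty, with 1 higher against WT-ERG. Without the lowest 25% of regions by signal, 2 H3K27ac regions were higher and 7 H3K27me3 regions lower in WT-ERG, 25 and 3 H3K4me1 regions were higher and lower in WT-ERG, 18 were lower in P199L-ERG than in empty, 2 and 34 were higher and lower than in WT-ERG, and Hoxa H3K4me1 in WT-ERG was 0.25. With only regions called in both lines, H3K27ac had 1 higher and 3 lower in WT-ERG, then 5 and 7 for P199L-ERG, H3K27me3 0 and 1 in either line, and H3K4me1 12 and 1 in WT-ERG, 1 and 6 in P199L-ERG against empty and 1 and 17 against WT-ERG, with ratios of -1.01 (Hoxa) and -0.69 (Hoxb) between the ERG lines and 0.41 (Hoxc) in WT-ERG. Start sites with H3K4me3 only numbered 1 with a window of 1 kb, of 5 kb, with calls in all 3 lines, with an overlap of 500 bases and in P199L-ERG. Those with both marks numbered 2 at 1 kb, 9 at 5 kb and 2 with an overlap of 500 bases, and those with neither 4 at 5 kb, 11 with calls in all 3 lines, 4 in WT-ERG and 11 in P199L-ERG.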

Other observations

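The proteins that bind DNA with Hox factors were looked up as a fixed list of 9 genes, the Meis, Pbx and Pknox families. They differed from the Hox genes in state. H3K4me3 lay at 8 of the 9 start sites in each line, and H3K27me3 at 4, 4 and 3. Meis1, the partner of Hoxa9 in leukaemia, had 3792, 3775 and 3160 normalized reads of H3K4me3 at its start site, 346, 393 and 235 of H3K27ac and no H3K27me3 region. Pbx3, another partner of Hoxa9, had 1094, 831 and 381 normalized reads of H3K27ac, a log2 ratio against empty of -0.40 in WT-ERG and -1.52 in P199L-ERG, not centred for GC content. Pknox2 was highest in the empty-vector line in every active mark, with 252, 78.3 and 51.2 normalized reads of H3K4me3 and 1500, 699 and 779 of H3K4me1. Over the 9 genes H3K4me1 was 1.5-fold higher in 2 and lower in 2 in WT-ERG, and higher in 0 and lower in 4 in P199L-ERG, with medians of 0.35 and -0.43. Of all H3K4me1 regions, counted by region and not by gene, 25.3% were higher and 17.2% lower in WT-ERG. For P199L-ERG these shares were 12.8% and 12.5%.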
